A study of Mus musculus with 37 samples.

Results

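The actin cytoskeleton genes examined here were picked by name, with earlier results of these data known: the cytoplasmic actins *ACTB* (ENSG00000075624) and *ACTG1* (ENSG00000184009), the monomer-binding proteins *TMSB4X* (ENSG00000205542), *TMSB10* (ENSG00000034510) and *PFN1* (ENSG00000108518), the severing factor *CFL1* (ENSG00000172757), the non-muscle myosin II subunits *MYL6* (ENSG00000092841) and *MYH9* (ENSG00000100345), and the intermediate filament gene *VIM* (ENSG00000026025). They are 9 of the 60708 human Ensembl IDs in the table. All 9 passed the filter on low counts, among 5193 IDs tested. The 37 bulk 3′ mRNA-seq libraries came from splenocytes of wild-type FVB mice. In 35 of them, the splenocytes had been kept for 48 h with the mouse macrophage-like line RAW264.7 or with its medium. Beforehand the RAW264.7 cells had spent 72 h at 21% oxygen (normoxia) or 1% oxygen (hypoxia), either alone or with SPP1 at 1 µg/mL (osteopontin, a secreted integrin and CD44 ligand).

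The labels distinguish 3 modes of exposure, each under the 4 combinations of oxygen and SPP1. In the medium mode, splenocytes received the RAW264.7 culture medium (11 libraries). In the cells mode they received the RAW264.7 cells (12 libraries), and in the washed mode the RAW264.7 cells after their medium had been washed off (12 libraries). Of the resulting 12 exposed groups, all had 3 libraries except medium, normoxia, no SPP1, which had 2. The naive group (2 libraries) received neither, and whether it was also cultured for 48 h is not given in the sources used here. Brefeldin A, an inhibitor of protein export, was added after the coculture. The study describes the collected cells as splenocytes or lymphocytes isolated from the cocultures. How they were parted from the RAW264.7 cells and how pure they were is not given in the sources used here. Both cell sources are mouse, so reads of one cannot be told apart from reads of the other. In bulk RNA, fewer cells of a type and less RNA per cell cannot be told apart either. Markers of splenocyte types and of RAW264.7 cells could not be looked up, because no table used here pairs the IDs with names.

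Cytoplasmic actin cycles between monomers and filaments. Thymosins hold monomers in reserve, profilin delivers them to growing filament ends, cofilin severs aged filaments, and non-muscle myosin II pulls on the filaments that remain. In lymphocytes and macrophages this machinery shapes the cortex and drives migration and contacts between cells, while vimentin forms a separate intermediate filament network that accompanies activation and motility.

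Reads were mouse, but the deposited counts refer to human genes, so each value below stands for mouse reads that aligned to the human gene of that ID. Levels were therefore compared only between libraries, never between genes. Levels are in CPM, that is, counts scaled by the TMM-adjusted library size, and total counts per library ran from 631574 to 1337314. The raw counts behind the values ranged from 128 to 1314 for *ACTG1*, from 293 to 1422 for *TMSB10*, from 57 to 838 for *ACTB*, from 105 to 928 for *MYH9* and from 111 to 722 for *MYL6*. *PFN1* (11 to 320), *CFL1* (13 to 106), *VIM* (6 to 122) and *TMSB4X* (6 to 35) rested on fewer reads. Among all IDs, 4 libraries stood apart on the second principal component (12.3% of the variance), namely cells hypoxia no-SPP1 replicate 2 and 3 libraries of the washed mode with SPP1 (replicates 1 and 2 in normoxia, and replicate 1 in hypoxia). On the first component (33.2%), 2 medium libraries without SPP1, replicate 1 in hypoxia (−11.6) and replicate 3 in normoxia (−10.7), were away from the other medium libraries at −57.5 to −41.5. Where leaving out these libraries changed a call or moved a called value by more than 1.5 times, the value without them is given.

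The transcriptional control of actin genes is classically tied to the CArG box, the element bound by serum response factor (2 C, 6 bases each A or T, then 2 G). It was searched on both strands of the mouse RefSeq promoters (GRCm38.p6, 300 bases each). Promoters of 8 of the 9 genes were found by symbol, as 11 windows, and *Actb* had no entry. The box was present in 2 of the 11 windows, 1 of *Actg1* and 1 of *Myl6*, and in 535 (1.63%) of all 32851 promoters of that table. The letters TATAAA, searched in the same way, were present in 2 windows, of *Vim* and *Myh9*, and in 13.6% of all promoters. The 30 bases around each CArG box are shown 5′ to 3′ on the minus strand, the strand of both genes, with the box in capitals. Both genes were lower in the cells and washed modes than in medium. So were *PFN1*, *CFL1* and *VIM*, whose windows held no box, and *ACTB*, which had no entry. The *Actg1* stretch lies at chr11:120348566-120348595, with the middle of its box 85 bases before the start site. The *Myl6* stretch lies at chr10:128493040-128493069, with the middle of its box 45 bases before the start.
Actg1: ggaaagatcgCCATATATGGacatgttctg
Myl6: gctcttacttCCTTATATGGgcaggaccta
A match is a description of the letters, and no binding was measured.

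Across the 13 groups, 8 of the 9 genes differed at an adjusted p under 0.05 in edgeR's quasi-likelihood test with Benjamini-Hochberg adjustment, the criterion for every call below. Of all IDs tested, 53.6% did so. The gene that did not was *TMSB4X* (adjusted p = 0.147). The summed share of counts held by the 9 genes was 0.400% ± 0.0218 (SD, n = 2) in naive libraries, 0.286% ± 0.0373 (n = 11) in medium, 0.166% ± 0.0163 (n = 12) in cells and 0.177% ± 0.0190 (n = 12) in washed libraries. The lowest medium library (0.223%) lay above the highest washed one (0.219%) and above every cells library (0.142% to 0.187%). These shares are of total counts, without TMM scaling. The TMM factors of that medium and that washed library were 1.10 and 0.998, so their order reverses with TMM scaling. The summed share thus separated medium from cells, and from washed only with unscaled totals.

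**Figure D1:**
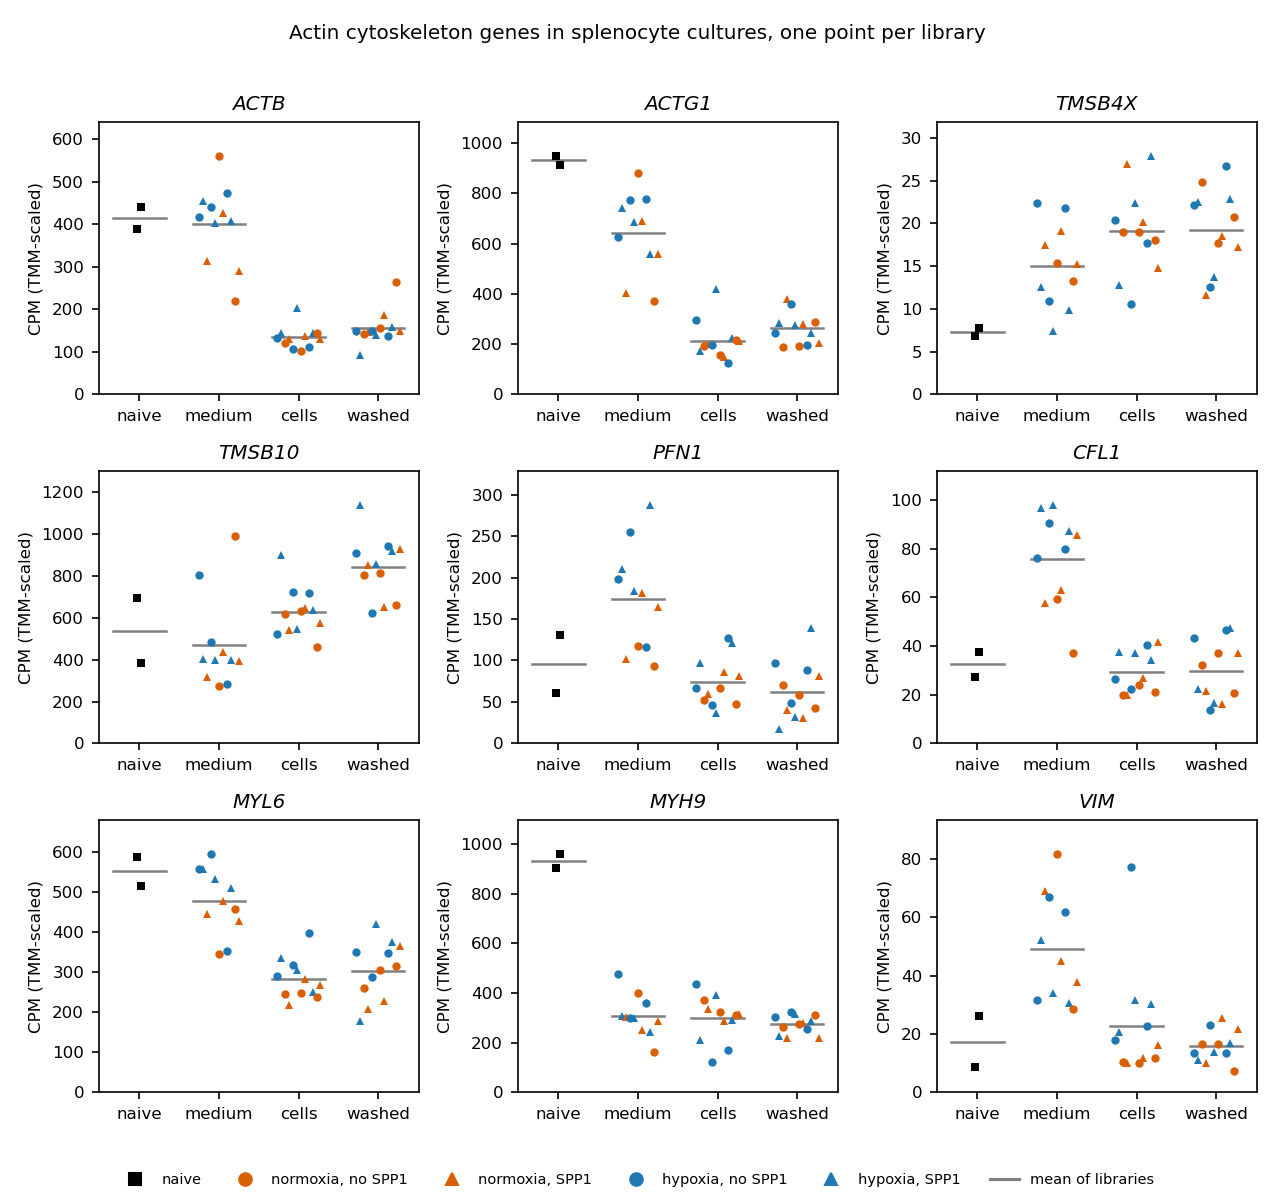
Level of each gene in each of the 37 libraries, in TMM-scaled CPM (linear axes starting at 0), by mode of exposure. Colors mark oxygen, shapes mark SPP1, and gray lines mark the mean of the libraries of a mode. ACTB in the cells libraries lies between 102 and 204 CPM, below all medium libraries at 219 to 560 CPM, whereas TMSB10 is spread from 624.8 to 1138 CPM in washed libraries and from 272 to 992 CPM in medium.

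The actins, which supply the filament itself, were lower in both modes with RAW264.7 cells than in medium. *ACTB* measured 389 and 442 CPM in the naive libraries. It ranged from 219 to 560 CPM with a median of 417 in medium, from 102 to 204 with a median of 132 in cells, and from 91.7 to 265 with a median of 148 in washed. Every cells library lay below every medium library, and of the washed libraries only normoxia no-SPP1 replicate 3, at 265 CPM, reached the medium range. *ACTB* was 2.99-fold lower in cells than in medium (log2 fold change −1.58 ± 0.14 (SE), adjusted p = 3.24e-11) and 2.57-fold lower in washed than in medium (−1.36 ± 0.14, adjusted p = 4.13e-10). Medium was not called against naive (log2 fold change −0.06, 95% interval −0.57 to 0.45).

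*ACTG1*, the second cytoplasmic actin, measured 948 and 913 CPM in the naive libraries. In medium it ranged from 371 to 879 CPM with a median of 686, in cells from 126 to 421 with a median of 199, and in washed from 188 to 381 with a median of 262. The naive libraries lay above all others, and the cells and washed ranges touched the lower end of the medium range. The log2 fold change was −1.60 ± 0.17 (SE, adjusted p = 9.63e-10) for cells and −1.29 ± 0.16 (adjusted p = 3.53e-08) for washed against medium. Against naive it was −2.14 ± 0.25 (adjusted p = 6.60e-08) for cells and −1.84 ± 0.26 (adjusted p = 1.17e-06) for washed, while medium against naive missed the threshold (−0.54, adjusted p = 0.142), although all 11 medium libraries lay below both naive ones. It was called when only these 13 libraries were fitted (−0.66, adjusted p = 0.0495).

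In cells against medium, 6 of the 9 genes were lower and 1 was higher, beside 48.7% of all IDs called (25.3% lower and 23.4% higher). In washed against medium the same counts applied, 6 lower and 1 higher, beside 58.7% of all IDs (30.2% lower, 28.6% higher). The median log2 fold change of the 9 genes was −1.14 for cells and −1.26 for washed, against −0.02 and −0.03 over all IDs. Both comparisons use the same medium libraries and so are not independent of each other. None of the 9 genes was called between washed and cells, where 7.24% of all IDs were (4.16% higher and 3.08% lower). DESeq2 called 0 of the 9 genes as well, beside 551 of 5193 IDs. Only *TMSB10* among the 9 had an unadjusted p under 0.05 in edgeR's quasi-likelihood test, as did 1240 of all 5193 IDs.

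The thymosins, which bind actin monomers and keep them from polymerizing, did not follow the actins. *TMSB10* measured 695 and 382 CPM in the naive libraries. It ranged from 272 to 992 CPM in medium with a median of 399, from 460 to 898 in cells with a median of 624, and from 624.8 to 1138 in washed with a median of 855. The ranges of all modes overlapped. The 2 medium libraries apart on the first component held 802 and 992 CPM, and the other 9 medium libraries held at most 486. *TMSB10* was 1.77-fold higher in washed than in medium (log2 fold change 0.82 ± 0.17, SE, adjusted p = 7.30e-05), and this call was kept in all 33 alternatives, from 0.54 with total counts to 1.29 without all 6 libraries apart. Its difference between cells and medium (0.40 ± 0.16, adjusted p = 0.0442) was lost in 22 of 33 alternatives, 15 of which left out a single library. Without medium normoxia no-SPP1 replicate 2 it was 0.22 (adjusted p = 0.282), and with total counts 0.23 (adjusted p = 0.241). It was larger without medium normoxia no-SPP1 replicate 3 (0.73, adjusted p = 0.000292), without the 2 medium libraries apart (0.80, adjusted p = 3.07e-05) and without all 6 (0.82, adjusted p = 2.82e-06). Between washed and cells it was 0.42 ± 0.16 (adjusted p = 0.0923), and the call was gained when only these 24 libraries were fitted (0.43, adjusted p = 0.0362), without the 2 medium libraries apart (0.41, adjusted p = 0.0387) and without all 6 libraries apart (0.47, adjusted p = 0.0215). Against naive, with all libraries in the fit, *TMSB10* was not called in any mode. The log2 fold change of 0.64 in washed (adjusted p = 0.115) became 1.23 (adjusted p = 0.0410) without naive replicate 1, 0.66 (adjusted p = 0.0356) without the 2 medium libraries apart and 0.69 (adjusted p = 0.0132) without all 6. Without those 6, medium was also called lower than naive (−0.59, adjusted p = 0.0221).

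*TMSB4X*, the other thymosin, was read from few counts. It stood at 6.83 and 7.81 CPM in the naive libraries, at 7.39 to 22.4 with a median of 15.3 in medium, at 10.5 to 27.9 with a median of 19.0 in cells and at 11.6 to 26.7 with a median of 19.6 in washed. All cells and washed libraries lay above both naive ones, but the naive values correspond to 7 and 6 reads. The log2 fold change against naive was 1.37 ± 0.44 (SE, adjusted p = 0.0173) for cells and 1.38 ± 0.44 (adjusted p = 0.0142) for washed. Each call was lost in 4 of 24 alternatives, among them leaving out either naive library, when the fold changes stayed between 1.35 and 1.49 (adjusted p between 0.103 and 0.136). Against medium, *TMSB4X* reached 0.38 (95% interval −0.03 to 0.79) in cells and 0.39 (−0.02 to 0.80) in washed, short of a call. Without washed hypoxia SPP1 replicate 2, the washed difference was called (0.47, adjusted p = 0.0471).

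*PFN1*, profilin, which loads monomers onto filament ends, measured 60.5 and 130 CPM in the naive libraries. It ranged from 93.5 to 287 CPM with a median of 181 in medium, from 36.4 to 127 with a median of 67.1 in cells and from 17.7 to 139 with a median of 53.8 in washed. The ranges overlapped, with the upper libraries of cells and washed inside the medium range. The log2 fold change against medium was −1.14 ± 0.25 (SE, adjusted p = 0.000246) for cells and −1.38 ± 0.25 (adjusted p = 1.50e-05) for washed. None of the 3 modes was called against naive, where the 2 libraries lay more than 2-fold apart, except that washed was called lower without washed hypoxia SPP1 replicate 3 (−0.93, adjusted p = 0.0450).

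*CFL1*, cofilin, which severs filaments and returns monomers to the pool, measured 27.3 and 37.8 CPM in the naive libraries. Its medium libraries ranged from 37.0 to 97.97 CPM with a median of 80.0, its cells libraries from 20 to 41.5 with a median of 26.6, and its washed libraries from 13.6 to 47.3 with a median of 27.3. The medium range met the others only at its low end, and the naive values fell inside the cells and washed ranges. Medium was higher than naive (log2 fold change 1.13 ± 0.39, SE, adjusted p = 0.0243), a call lost when either naive library was left out (0.98 and 1.36, adjusted p = 0.176 and 0.109). Cells and washed were lower than medium by −1.30 ± 0.19 (adjusted p = 1.25e-06) and −1.26 ± 0.20 (adjusted p = 1.36e-06) on the log2 scale.

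The paired subunits of non-muscle myosin II, the motor that contracts actin filaments, were both lower than naive in cells and washed. With TMM scaling, only *MYL6* was called against medium, and no test compared the subunits with each other. *MYL6*, the essential light chain, measured 587 and 516 CPM in naive libraries and ranged from 344 to 594 in medium, from 218 to 397 in cells and from 179 to 419 in washed, with medians of 478, 275 and 310. Its ranges in cells and washed overlapped the lower end of medium. Its log2 fold change against medium was −0.74 ± 0.13 (SE, adjusted p = 1.37e-05) for cells and −0.63 ± 0.13 (adjusted p = 8.53e-05) for washed. Without all 6 libraries apart, the washed difference was −0.34 (adjusted p = 0.0163).

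*MYH9*, the heavy chain, measured 906 and 960 CPM in the naive libraries, above every exposed library. It ranged from 162 to 478 CPM in medium, from 123 to 439 in cells and from 219 to 323 in washed, with medians of 300, 314 and 278. All 3 modes were lower than naive, by −1.62 ± 0.26 (SE, adjusted p = 1.07e-05) in medium, −1.65 ± 0.25 (adjusted p = 6.06e-06) in cells and −1.77 ± 0.25 (adjusted p = 1.35e-06) in washed on the log2 scale, and these calls held in every alternative. Fits without 1 naive library leave a single one, which is then assumed to vary like the other groups. These 3 comparisons share the naive libraries. *MYH9* was not called between cells and medium (−0.03, 95% interval −0.36 to 0.29), and in washed against medium (−0.15) it was called lower only with total counts in place of TMM (−0.44, adjusted p = 0.0237), a scaling that moved the median of all IDs to −0.32 in that comparison.

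*VIM*, vimentin, measured 8.78 and 26.0 CPM in the naive libraries, which correspond to 9 and 20 reads. Its medium libraries ranged from 28.6 to 81.6 CPM with a median of 44.9, its cells libraries from 10.0 to 77.3 with a median of 17.2, and its washed libraries from 7.25 to 25.4 with a median of 15.2. Every washed library and both naive libraries lay below every medium library. The log2 fold change against medium was −1.32 ± 0.24 (SE, adjusted p = 2.75e-05) for cells and −1.63 ± 0.25 (adjusted p = 9.02e-07) for washed. Medium was higher than naive by 1.53 ± 0.51 (adjusted p = 0.0193), a call lost without naive replicate 1 (0.98, adjusted p = 0.265) and kept without naive replicate 2 (2.45, adjusted p = 0.0291).

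**Figure D2:**
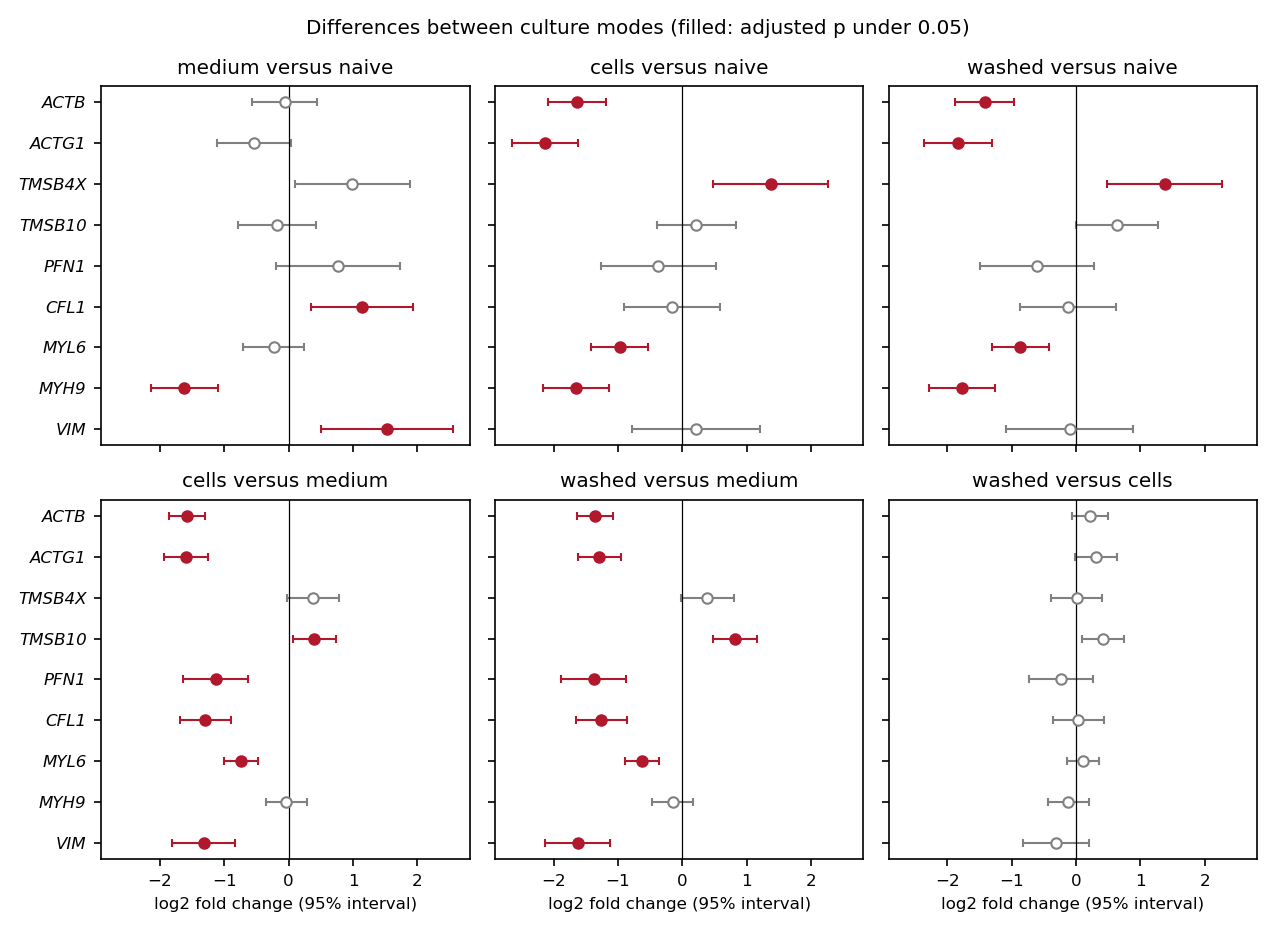
Log2 fold change of each gene (first mode minus second) in the 6 comparisons between modes, with 95% intervals from the quasi-likelihood model on all 37 libraries. Filled red points have an adjusted p under 0.05. Against medium, 6 genes are lower and TMSB10 is higher in both cells and washed, MYH9 sits near 0, and MYH9 is lower than naive in all 3 modes.

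Against naive, the counts differed by mode. In medium, *CFL1* and *VIM* were higher and *MYH9* was lower, 3 of 9 genes, beside 32.4% of all IDs called (17.1% higher and 15.3% lower). In cells, *ACTB*, *ACTG1*, *MYL6* and *MYH9* were lower and *TMSB4X* was higher, beside 27.3% of all IDs (13.4% lower and 13.9% higher). In washed the same 5 genes were called in the same directions, beside 34.5% (17.1% lower and 17.5% higher). *ACTB* was lower than naive by −1.64 ± 0.22 (SE, adjusted p = 7.86e-07) in cells and −1.42 ± 0.23 (adjusted p = 7.88e-06) in washed, and *MYL6* by −0.97 ± 0.22 (adjusted p = 0.000809) and −0.86 ± 0.22 (adjusted p = 0.00229). The *MYL6* call was lost without naive replicate 1 in both modes (−0.79, adjusted p = 0.0539, in cells and −0.68, adjusted p = 0.0959, in washed). With 2 naive libraries, these comparisons rest on few samples.

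Ordered over all 13 groups, the levels formed long runs of neighbors with overlapping libraries. For *ACTB* the order began with medium hypoxia no-SPP1 (444 CPM ± 28.6, SD, n = 3) and medium hypoxia SPP1 (422 ± 28.7), and it ended with cells normoxia no-SPP1 (122 ± 20.6) and cells hypoxia no-SPP1 (117 ± 14.3). Of its 12 steps between neighbors, 10 overlapped, and the wider of the 2 separations fell between medium normoxia SPP1 (344 ± 73.4) and washed normoxia no-SPP1 (187 ± 67.7). *ACTG1* also had 2 separated steps, 1 below the naive group and 1 between medium normoxia SPP1 (551 ± 142) and washed normoxia SPP1 (289 ± 88.2). *MYH9* was separated only below naive (933 ± 38.3 against 379 ± 90.7 in medium hypoxia no-SPP1). *TMSB4X* had 1 separated step, between medium normoxia no-SPP1 (14.3 ± 1.50) and medium hypoxia SPP1 (9.95 ± 2.59), and *TMSB10*, *PFN1*, *CFL1*, *MYL6* and *VIM* had none.

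The effect of hypoxia during the RAW264.7 culture was tested within each mode, averaged over SPP1. *VIM* was the only one of the 9 genes called, and only in the cells mode, where 3.62% of all IDs passed the same threshold (2.72% higher, 0.905% lower). In cells from normoxia without SPP1 it measured 10.5, 10.0 and 11.7 CPM, and with SPP1 10.0, 11.7 and 16.3 CPM. In cells from hypoxia without SPP1 it measured 18.0, 77.3 and 22.7 CPM, and with SPP1 20.7, 31.5 and 30.3 CPM. All 6 hypoxia libraries exceeded all 6 normoxia libraries, 1 of them by far. The log2 fold change was 1.48 ± 0.35 (SE, adjusted p = 0.0118).

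The high library, cells hypoxia no-SPP1 replicate 2, is also 1 of the 4 that stood apart on the second component. Without it the *VIM* difference was 1.01 (adjusted p = 0.102), and without all 4 it was 1.03 (adjusted p = 0.0650), so the direction was kept and the call was not. Without all 6 libraries apart it was 1.01 and passed the threshold (adjusted p = 0.0250). In medium, *VIM* averaged 46.2 CPM ± 16.2 (SD, n = 6) after hypoxia and 52.3 ± 22.2 (n = 5) after normoxia, and in washed 15.3 ± 4.16 and 16.3 ± 6.88 (n = 6 each). The hypoxia effect on *VIM* exceeded that in medium by 1.69 ± 0.48 (SE, log2) in cells, with an adjusted p of 0.122, and it was lower in washed than in cells by −1.56 ± 0.51 (adjusted p = 0.353). A difference of the hypoxia effect between modes was thus not shown for *VIM*.

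In the medium mode, *PFN1* measured from 116 to 287 CPM with a median of 204 after hypoxia, and from 93.5 to 181 with a median of 117 after normoxia. *CFL1* measured from 76.3 to 97.97 CPM with a median of 88.9 after hypoxia, and from 37.0 to 85.7 with a median of 59.5 after normoxia. Both pairs of ranges overlapped. The log2 differences were 0.73 for *PFN1* (95% interval 0.01 to 1.45, adjusted p = 0.669) and 0.61 for *CFL1* (0.05 to 1.17, adjusted p = 0.611), the 2 genes with an unadjusted p under 0.05 there, and none was called, beside 0.0770% of all IDs. In washed, none of the 9 genes was called or had an unadjusted p under 0.05 in edgeR's quasi-likelihood test, beside 0.0385% of all IDs called. DESeq2 called 0 of the 9 genes in both modes, beside 11 of 5193 IDs in medium and 1 in washed.

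SPP1 during the RAW264.7 culture gave no call for any of the 9 genes with edgeR's quasi-likelihood test, in medium (0.250% of all IDs called), in cells (0.00%) or in washed (0.0193%). DESeq2 gave none for them either, beside 29 of 5193 IDs in medium, 0 in cells and 9 in washed. Of all 5193 IDs, 478 in medium, 87 in cells and 527 in washed had an unadjusted p under 0.05 in edgeR's quasi-likelihood test. Among the 9 genes, 1 did so in medium and 0 in each of the other modes. That gene was *TMSB10*, at 802, 486, 284, 272 and 992 CPM in the 5 medium libraries without SPP1 and from 319 to 434 CPM with a median of 398 in the 6 with SPP1. The values without SPP1 spread on both sides of those with SPP1. The log2 difference was −0.56 (95% interval −1.04 to −0.08, adjusted p = 0.468). Without medium normoxia no-SPP1 replicate 2, the lowest of the 5, it was −0.87 (adjusted p = 0.0456). Without the 2 medium libraries apart, which held the 802 and 992 CPM, it was 0.29 with the opposite sign (adjusted p = 0.977), and without all 6 it was 0.27 (adjusted p = 0.718). The intervals of the other genes in medium reached down to −0.96 (*VIM*) and up to 1.1 (*PFN1*). Differences of about 2-fold could thus not be told from none for *VIM* downward and *PFN1* upward. Intervals were narrower for *ACTB* (−0.53 to 0.27), *ACTG1* (−0.63 to 0.32), *MYL6* (−0.25 to 0.51) and *MYH9* (−0.68 to 0.26).

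**Figure D3:**
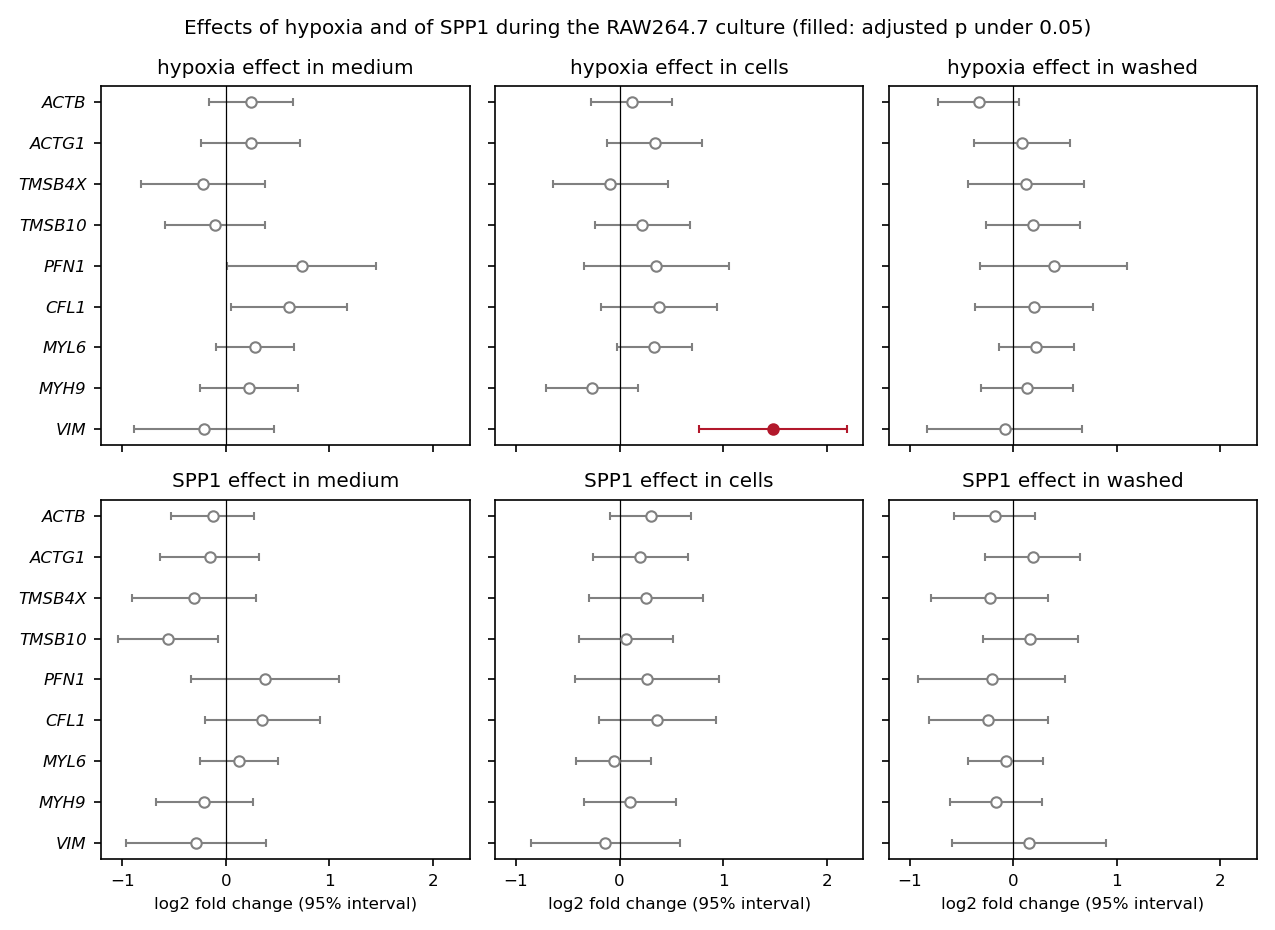
Log2 fold change of each gene for hypoxia against normoxia (top) and SPP1 against no SPP1 (bottom) in each mode, with 95% intervals. Filled red points have an adjusted p under 0.05. VIM in the cells mode, at 1.48, is the single filled point among 54.

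Differences of the hypoxia and SPP1 effects between modes, and of the SPP1 effect between oxygen levels, were tested as 9 interaction contrasts. None of the 81 gene by contrast tests was called with edgeR's quasi-likelihood test, and 4 had an unadjusted p under 0.05. Of all 5193 IDs, 25 (0.481%) were called for the hypoxia effect in cells minus medium, 9 (0.173%) for washed minus cells and 0 for each of the other 7 contrasts, while 88 to 538 IDs per contrast had an unadjusted p under 0.05. Of the 4, 2 were the differences of the hypoxia effect on *VIM* given above. The others were the hypoxia effect on *ACTB* in washed against medium (log2 difference −0.57 ± 0.28, SE, adjusted p = 1.00) and the SPP1 effect on *TMSB10* in washed against medium (0.72 ± 0.33, adjusted p = 0.419).

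Pearson correlations of log2 CPM over the 37 libraries describe which genes shared a profile. These libraries share groups and depth, so no p is given. *ACTB* and *ACTG1* were nearest to each other (r = 0.915), as were *PFN1* and *CFL1* (0.865). The r was 0.621 and 0.675 for these pairs after subtraction of group means, so each pair also varied together among replicates. *MYL6* was nearest to *ACTB* (0.746), *MYH9* to *ACTG1* (0.510) and *VIM* to *CFL1* (0.632). *TMSB10* ran opposite to *ACTB*, at −0.678 over all libraries and −0.674 after subtraction of group means. Replicates 2 and 3 of medium normoxia no-SPP1 lay far apart in both genes, at 560 and 219 CPM for *ACTB* and at 272 and 992 CPM for *TMSB10*. Their part in the second value was not tested.

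**Figure D4:**
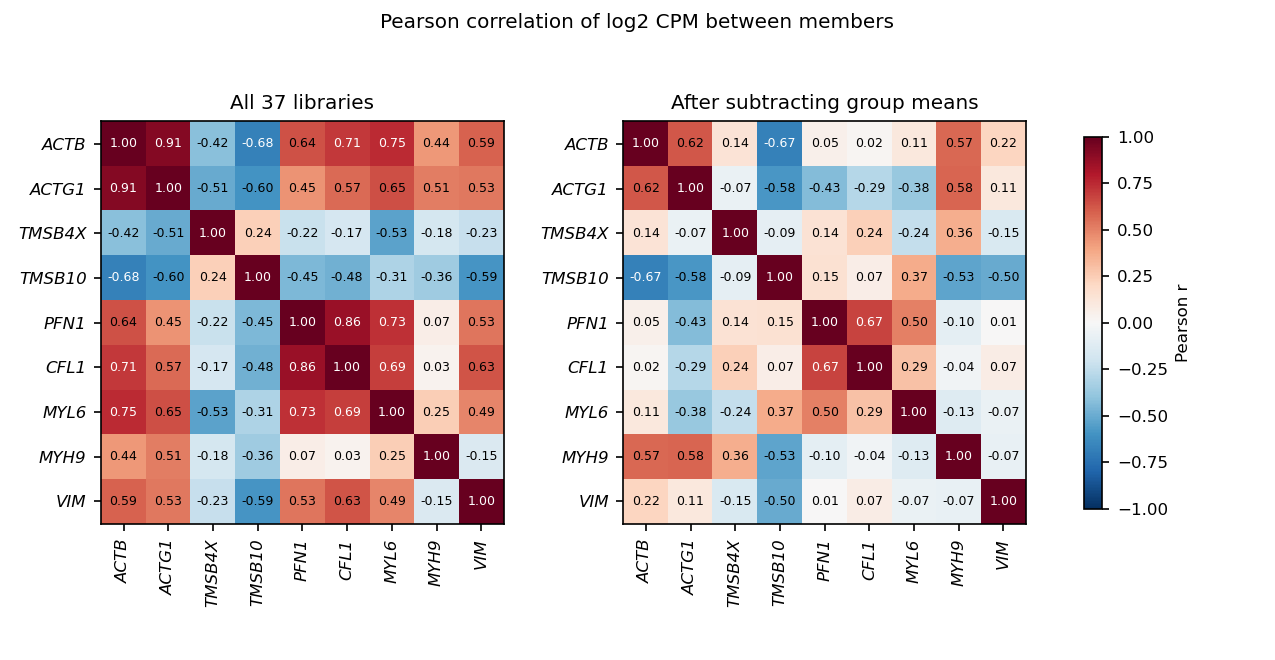
Pearson correlation of log2 CPM between the 9 genes, over all 37 libraries (left) and after subtracting the mean of each of the 13 groups (right), with r printed in each square. ACTB with ACTG1 and PFN1 with CFL1 are the highest pairs on both sides, and the TMSB10 row is negative against ACTB, ACTG1, MYH9 and VIM on both sides.

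The member with the highest mean CPM, *TMSB10*, was the one set for a search of similar profiles, which is no comparison of expression between genes. The tested IDs most like it were ENSG00000133112.17 (r = 0.900) and ENSG00000142534.7 (0.892). Those least like it were ENSG00000112308.13 (−0.860) and ENSG00000119772.18 (−0.851). No table used here pairs these IDs with names. For *TMSB10* and *MYL6*, mouse transcripts hold a further limit on identity. Of the 50-base stretches in the last 500 bases of the mouse transcript (GENCODE vM21), 61.9% of those of *Tmsb10* and 55.9% of those of *Myl6* also occurred in transcripts of 5 other genes each, as did 9.31% of those of *Actb* in 1 other gene. The other 6 genes shared none, and no stretch was shared between members. The search covered exact matches between mouse transcripts, not the alignment of mouse reads to the human genome. It therefore cannot show whether reads of different members, such as the actins, were kept apart.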

How the data were processed

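RNA from 37 splenocyte samples was made into QuantSeq 3′ libraries, which read the 3′ ends of polyadenylated transcripts. The authors trimmed the reads with bbduk, aligned them to GRCh38 with STAR 2.7.10b, used featureCounts (Rsubread 2.0.3) for counting and deposited raw counts per gene. GRCh38 is a human genome, so the gene behind an ID is uncertain. The annotation release and the use of the molecular identifiers in counting are not given in the sources used here, so a count may include PCR copies.

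Groups came from the treatment labels. Counts were fitted with edgeR 4.0.16 in R 4.3.3: filterByExpr by group (minimum count 10), TMM scaling, 1 mean per group and the quasi-likelihood F test, with Benjamini-Hochberg adjustment over all 5193 IDs and a threshold of 0.05. Conditions within a mode were weighted equally. Standard errors came from the F statistic. CPM used TMM-scaled totals (median total 1063211), and log2 CPM used a prior count of 2. Labels do not tie replicates to separate animals, so p-values measure the spread between these samples. In 35 replicate pairs the chi-square of the counts per degree of freedom was 2.78 to 42.9, so none were copies. The 9 members and the lists were chosen with earlier results of these data known. The genes named were the 9 members, the nearest member of each, and the 2 most and 2 least similar IDs to the member with the highest mean. A list of other actin pathway genes and lists of cell type markers, set by symbol, were not run, because the tables used here pair 0 of the human IDs with names. Alternatives are given in the closing section.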

Additional observations from a re-analysis of the deposited data

Results flagged for a closer look

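Within each mode and oxygen level, the highest and lowest library of every gene were compared with their neighbors by Dixon's gap test at the 95% level. Chance alone marks about 1 in 20 groups, and 7 of 54 were marked here.

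*ACTB* was high in washed normoxia no-SPP1 replicate 3 (265 CPM, nearest library 186) and low in washed hypoxia SPP1 replicate 1 (91.7 CPM, nearest 138). *TMSB10* was high in medium normoxia no-SPP1 replicate 3 (992 CPM, nearest 434). *CFL1* was high in cells normoxia SPP1 replicate 3 (41.5 CPM, nearest 26.8), and so was *VIM* in the same library (16.3 CPM, nearest 11.7). *MYL6* was low in medium hypoxia no-SPP1 replicate 3 (351 CPM, nearest 509). *VIM* was high in cells hypoxia no-SPP1 replicate 2 (77.3 CPM, nearest 31.5), the library whose removal alone lost the call of the hypoxia effect in cells. Washed hypoxia SPP1 replicate 1, medium normoxia no-SPP1 replicate 3 and cells hypoxia no-SPP1 replicate 2 are among the 6 libraries that stood apart on the principal components over all IDs, and the part of that in these values was not tested.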

How the results depend on the processing

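Of 28 calls of single genes, 755 of 793 alternative fits kept the call and 38 lost it, 22 of them for *TMSB10* in cells against medium, and no called gene changed sign. Among the genes without a call, 13 alternative fits gained one. Alternatives were RLE scaling, total counts, TMM without the members, every ID with a count, DESeq2, only the 2 arms compared, the replicate block, and leaving out each library. Leaving out the 4, the 2 or all 6 libraries apart on the principal components was chosen after seeing the data. Total counts moved the median log2 fold change of all IDs to −0.32 in washed against medium, −0.30 in washed against naive, −0.18 in cells against both medium and naive, and −0.13 in washed against cells.

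The number of genes called changed by more than 1.5 times as follows, and the cause was not tested. When single libraries were left out, medium against naive gave 1 to 3 genes (1 without naive replicate 1, beside 1446 of 6031 IDs), cells against naive 3 to 5 (3 without naive replicate 1, beside 1352 of 6031), the hypoxia effect in cells 0 to 2 (0 without cells hypoxia no-SPP1 replicate 2, beside 125 of 5185, and 2 without replicate 1, beside 293 of 5186, when *MYH9* was also called, at −0.63 with an adjusted p of 0.0471), and the SPP1 effect in medium 0 to 1 (1 without medium normoxia no-SPP1 replicate 2, beside 73 of 6011). Fits that leave 1 library in a group assume that it varies like the other groups. Washed against naive gave 3 with every ID with a count (1667 of 22657 IDs). Washed against cells gave 1 with only the 2 arms (295 of 4342), without the 2 medium libraries apart (431 of 6002) and without the 6 libraries apart (402 of 5819). The hypoxia effect in cells gave 0 without the 4 libraries apart (240 of 5885).

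Whether the replicate numbers pair the samples was not settled. Of 210 correlations between same-numbered libraries of different groups, 36 exceeded 0.1 (median 0.00679, lowest −0.477). Of 421 between differently numbered ones, 67 did so (median −0.00124, lowest −0.510). Among the 37 libraries, 17 correlated best with their own number. With the replicate block, the number of genes called was 3 in medium, 5 in cells and 5 in washed against naive, 7 in cells and 7 in washed against medium, 0 in washed against cells and 1 for hypoxia in cells, as without it. Of all 5193 IDs, 1540, 1363, 1739, 2493, 3018, 387 and 182 were called in these comparisons, in the same order. Standard errors were larger against naive, with its 2 libraries, than between the other modes for every gene. For *ACTB* the standard error was 0.25 in medium against naive and 0.14 in cells against medium. In naive libraries, *TMSB4X* rested on as few as 6 reads.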
